A study of Homo sapiens with 4 samples.

Results

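The Polycomb repressive complex genes described here are 9 genes chosen by name: EZH1, EZH2, EED, SUZ12 and PHF19 of Polycomb repressive complex 2 (PRC2), and RNF2, BMI1, CBX2 and CBX8 of Polycomb repressive complex 1 (PRC1). All 9 were found by their Ensembl identifiers among the 57820 genes counted, and all 9 passed the filter on low counts. They were measured by poly(A) RNA sequencing in the medulloblastoma line Daoy, an established human cell line, in a study of what changes in the transcriptome when ARID1B, a subunit of the BAF chromatin remodelling complexes, is lowered. There were 4 libraries, of which 3 were titled wild type and 1 came from a polyclonal population carrying an inducible short hairpin RNA (shRNA) against ARID1B in the lentiviral vector tet-pLKO-puro. The labels give the same treatment for all 4, doxycycline at 1 µg/ml for 72 h. Vector-only and parental cells both served as controls by the series design, but no label tells them apart among the wild-type libraries.

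PRC2 is the methyltransferase complex that places the repressive mark H3K27me3 on histone H3. EZH2 or its paralogue EZH1 carries the catalytic site, EED and SUZ12 are needed for activity, and PHF19 is one of the Polycomb-like proteins that help PRC2 find its sites. PRC1 is a ubiquitin ligase for histone H2A: RNF2 is its RING-type catalytic subunit, BMI1 is a partner of RNF2, and the chromodomain proteins CBX2 and CBX8 bind H3K27me3 and bring PRC1 to it. Polycomb complexes keep developmental genes such as the HOX clusters silent, and they oppose the SWI/SNF complexes to which ARID1B belongs. In stem and progenitor cells of the cerebellum, BMI1 and EZH2 are known for sustaining proliferation.

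The libraries held 12619786, 13228587 and 15390106 gene-assigned reads in wild type 1, 2 and 3, and 8792848 in the library labelled ARID1B shRNA. Levels below are CPM after library scaling, that is, the reads of a gene relative to the scaled total of its library, and a wild-type mean ± SD is over n = 3 libraries. The target gene did not bear out the label: ARID1B stood at 164, 88.0 and 72.9 CPM in wild type, against 175 CPM in the library labelled ARID1B shRNA (log2 fold change 0.69, SE 0.46, edgeR adjusted p = 0.399). Without wild type 1 the difference was 1.12 and passed (0.026), with ARID1B higher, and after removal of the trend that each library shows with GC content and gene length it turned to -0.20 (0.873). Every direction below is therefore one of the library labelled ARID1B shRNA, called the shRNA-labelled library from here on, against wild type. That library has no replicate, and the labels do not give separate cultures for wild type, so p-values reflect only how these libraries spread, which may be technical. In bulk RNA, a smaller share of cells and less RNA per cell cannot be told apart. Of 12 cerebellar neural and medulloblastoma markers, 9 passed the filter and ATOH1 was at 0 in every library; the summed level of the 12 was 43.6 to 54.4 CPM in wild type, against 85.8 CPM in the shRNA-labelled library. EN2, ZIC2 and GLI2 (26.6, 24.8 and 14.8 CPM there) made up most of that sum, while 5 of the 9 tested markers were lower and their median log2 fold change was -0.02 (-0.47 with the trend removed). EN2 and ZIC2 rose, and ZIC2 did not pass with the trend removed (edgeR adjusted p = 0.21). OTX2 lay below every wild-type library and NEUROD1, at 4 to 6 reads in wild type, was at 0. The 6 mesenchymal markers summed to 3870 to 5740 CPM and 3580 CPM, of which COL1A1 gave 2690 CPM in the shRNA-labelled library. None of them passed, yet 4 of the 6 lay below every wild-type library and their median log2 fold change was -1.99. COL3A1 stood at 1350, 655 and 626 CPM in wild type, against 85.1 CPM (edgeR adjusted p = 0.0519), and COL1A2, LUM and PDGFRB were 2.25-fold, 4.08-fold and 3.89-fold below their wild-type means. The 6 immune markers summed to 0.466 to 1.39 CPM and 0.57 CPM, with CD3E at 0 throughout. The 4 epithelial markers summed to 7.14 to 16.9 CPM and 2.74 CPM, and the 5 glial markers to 2.6 to 4.02 CPM and 2.74 CPM. Whether these differences in marker levels have a part in the results was not tested.

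The gene starts of 3 core PRC2 subunits are printed first, since EZH2 and EED are textbook targets of the E2F factors that drive S phase. These 3 lay below every wild-type library in the shRNA-labelled library, but none passed the test. Each run covers 250 bases before the RefSeq gene start and 10 after it (GRCh38.p14), read 5′ to 3′ along the gene, and capitals mark E2F letters (TTTCCCGC, TTTCGCGC, TTTGCCGC or TTTGGCGC on either strand).
EZH2, chr7:148884282-148884541, minus strand: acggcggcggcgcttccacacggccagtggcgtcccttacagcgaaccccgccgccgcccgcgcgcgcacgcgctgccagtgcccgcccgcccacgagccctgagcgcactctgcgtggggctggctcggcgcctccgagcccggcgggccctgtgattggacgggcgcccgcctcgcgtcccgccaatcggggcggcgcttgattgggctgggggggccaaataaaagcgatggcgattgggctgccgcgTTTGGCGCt
EED, chr11:86244503-86244762, plus strand: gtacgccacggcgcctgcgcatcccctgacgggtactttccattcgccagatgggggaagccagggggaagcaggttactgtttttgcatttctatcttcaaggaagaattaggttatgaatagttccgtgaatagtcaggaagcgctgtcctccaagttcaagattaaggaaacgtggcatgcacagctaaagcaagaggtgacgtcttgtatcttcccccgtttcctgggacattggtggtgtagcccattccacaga
SUZ12, chr17:31936757-31937016, plus strand: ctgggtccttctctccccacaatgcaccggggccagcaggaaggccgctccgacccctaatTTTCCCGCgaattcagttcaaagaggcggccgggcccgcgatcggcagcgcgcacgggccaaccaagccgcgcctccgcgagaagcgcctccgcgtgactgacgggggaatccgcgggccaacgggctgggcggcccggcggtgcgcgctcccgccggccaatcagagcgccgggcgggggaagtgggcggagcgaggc

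RefSeq windows were matched for 7 of the 9 genes (10 windows, since EZH2, PHF19 and BMI1 have several starts). Of the 10 windows 4 held E2F letters, 1 each of EZH2, SUZ12, EZH1 and PHF19, and among all 35116 RefSeq windows of the same 260 bases 2.9% held them. The other EZH2 window (chr7:148883476-148883735) and the other PHF19 window held none. Neither window of BMI1, which also lay below every wild-type library, held any, nor did that of RNF2. EZH1 and PHF19, which do hold the letters, had log2 fold changes of -0.07 and -0.01. The EZH2 match begins at base 2 of the transcript, the SUZ12 match 189 bases before the start, and EED has none in this window. The printed EZH2 and SUZ12 windows hold 40 and 36 CpG pairs, the EED window 11, and the median over all windows is 11. The 4 windows with E2F letters have 67.7% to 79.2% GC, against a median of 58.1% over all windows. The share of 2.9% is over windows not matched for base composition, and the part of base composition in these counts was not tested. These matches describe the letters of the windows and show no binding.

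None of the 9 Polycomb genes passed the test, against 4.48% of all 17024 genes tested (edgeR adjusted p below 0.05; 3.65% higher and 0.834% lower). Of the genes called, 81.4% were higher, and 62.2% with each library's trend on GC and length taken out. At an unadjusted p below 0.05 there were 2 of the 9, CBX8 and EZH2, against 25.4% of all genes. DESeq2 and limma-voom also called 0 of the 9, beside 1775 and 819 of all 17024 genes. The library labelled ARID1B shRNA lay below all 3 wild-type libraries for EZH2, EED, SUZ12 and BMI1 and above all 3 for RNF2 and CBX8. Of all tested genes 37.9% lay below and 35.4% above every wild-type library, so 4 and 2 of 9 are near the background. The median log2 fold change of the 9 was -0.07, against -0.05 over all tested genes.

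**Figure D1:**
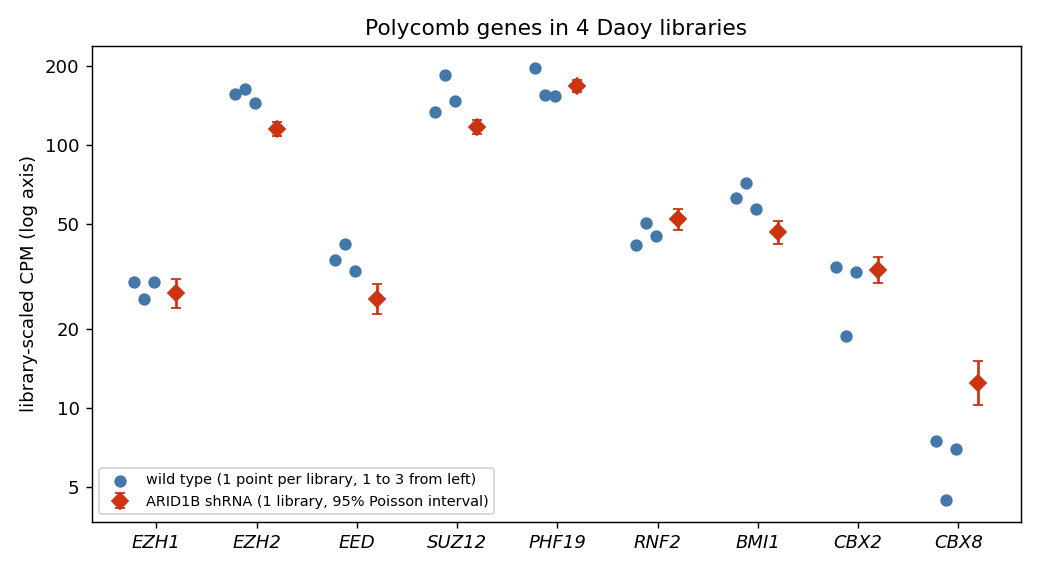
Library-scaled CPM (log axis) of the 9 Polycomb genes, with 1 blue point for each wild-type library and a red diamond with its exact 95% Poisson interval for the library labelled ARID1B shRNA. The diamonds of EZH2, EED, SUZ12 and BMI1 lie below all 3 blue points, and those of RNF2 and CBX8 above them.

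The catalytic PRC2 genes differed from each other in level per kilobase far more than either differed between libraries. EZH2 measured 156, 163 and 144 CPM in wild type 1, 2 and 3 and 115 CPM (95% Poisson interval 108 to 122) in the shRNA-labelled library. This value was 1.34-fold below the wild-type mean and outside the wild-type range, yet the log2 fold change of -0.42 (95% interval -0.84 to 0) did not pass (edgeR adjusted p = 0.195). EZH1, the paralogue that is more prominent in cells that divide little, measured 30.1, 25.9 and 30.1 CPM in wild type, against 27.4 CPM in the shRNA-labelled library, inside the wild-type range. Its log2 fold change was -0.07 (95% interval -0.61 to 0.48, edgeR adjusted p = 0.874). Per kilobase of exon, EZH2 made up 88.9%, 90.7% and 88.1% of the EZH1 and EZH2 sum in wild type and 86.6% in the shRNA-labelled library. By transcript level EZH2 was thus the main catalytic gene in all 4 libraries.

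The non-catalytic core subunits stood lower by amounts like that of EZH2. EED, the WD40 subunit that reads H3K27me3, measured 36.5, 42.0 and 33.3 CPM in wild type, against 26.1 CPM in the shRNA-labelled library. SUZ12, the scaffold of the complex, measured 134, 185 and 147 CPM against 117 CPM. Both lay below every wild-type library, and neither passed: the log2 fold change was -0.51 for EED (95% interval -1.09 to 0.07, edgeR adjusted p = 0.241) and -0.41 for SUZ12 (-0.98 to 0.16, 0.319). SUZ12 has a close pseudogene copy, SUZ12P1, with 70 to 139 reads per library, so reads could be split between them. The histone-binding subunits RBBP4 and RBBP7, which PRC2 shares with other complexes, stood at -0.31 and -0.24 on the log2 scale (edgeR adjusted p = 0.386 and 0.411).

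PHF19, of the Polycomb-like family, had a fold change near 0. It measured 197, 155 and 153 CPM in wild type, against 167 CPM in the shRNA-labelled library, inside the wild-type range (log2 fold change -0.01, 95% interval -0.52 to 0.51, edgeR adjusted p = 0.987). Its Polycomb-like paralogue PHF1 measured 37.6, 33.2 and 32.0 CPM in wild type, against 66.2 CPM in the shRNA-labelled library, 1.93-fold higher, and missed the threshold (log2 fold change 0.95, edgeR adjusted p = 0.0558). With RLE scaling PHF1 passed (edgeR adjusted p = 0.0497), and with the GC and length trend of each library removed its log2 fold change was 0.23 (0.597). MTF2, the remaining paralogue, had -0.26 (edgeR adjusted p = 0.471). With the trend removed MTF2 had -0.01 and PHF19 -0.60. Shares per kilobase, here and for the other families, are not corrected for that trend. Per kilobase, PHF1 made up 18.6% ± 0.577 (SD, n = 3) of the 3 Polycomb-like genes in wild type and 32.2% in the shRNA-labelled library, while PHF19 went from 48.7% ± 4.26 to 43.5% and MTF2 from 32.6% ± 4.78 to 24.3%.

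Of the 10 other PRC2 genes listed, 9 were matched and tested. None passed by edgeR, beside 4.48% of all tested genes (median log2 fold change -0.10). An unadjusted edgeR p below 0.05 was found for 3 of the 9, beside 25.4% of all genes. Those 3 were PHF1, JARID2 and EZHIP. JARID2, an accessory subunit of the PRC2.2 form, measured 61.0, 77.1 and 76.9 CPM in wild type, against 115 CPM in the shRNA-labelled library (log2 fold change 0.69, edgeR adjusted p = 0.111). LCORL, a component of the PRC2.1 form, had -0.52 (edgeR adjusted p = 0.292). DESeq2 called 1 of the 9, PHF1, beside 1775 of all 17024 genes.

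In PRC1, the catalytic gene RNF2 and its partner BMI1 lay on opposite sides of wild type. RNF2 measured 41.8, 50.6 and 45.1 CPM in wild type, against 52.2 CPM in the shRNA-labelled library, just above the highest wild-type library (log2 fold change 0.19, 95% interval -0.31 to 0.69, edgeR adjusted p = 0.591). BMI1 measured 63.2, 71.5 and 57.2 CPM in wild type, against 46.7 CPM in the shRNA-labelled library, below all 3 (log2 fold change -0.46, 95% interval -0.97 to 0.06, edgeR adjusted p = 0.243). BMI1 counts are uncertain, because its exons are also annotated to the read-through gene COMMD3-BMI1, which had 0 reads in all 4 libraries. Per kilobase, RNF2 made up 26.6% ± 4.22 (SD, n = 3) of the RNF2 and RING1 sum in wild type and 24.1% in the shRNA-labelled library. RING1, the other catalytic paralogue, measured 57.0 ± 6.54 and 73.3 CPM (edgeR adjusted p = 0.313).

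BMI1 is one of the PCGF proteins, each of which defines a variant of PRC1. Per kilobase it held 36.4%, 35.5% and 32.8% of the 5 PCGF genes measured (PCGF1, PCGF3, BMI1, PCGF5 and PCGF6) in wild type, the highest share in each library. In the shRNA-labelled library its share was 26.1%, below all 3, with PCGF3 at 24.1% against 16.5% ± 2.17 (SD, n = 3). The PCGF sum itself was 42.8 ± 3.71 and 41.8 CPM per kilobase. PCGF3 alone had a log2 fold change of 0.50 (edgeR adjusted p = 0.228), so neither gene passed on its own.

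**Figure D2:**
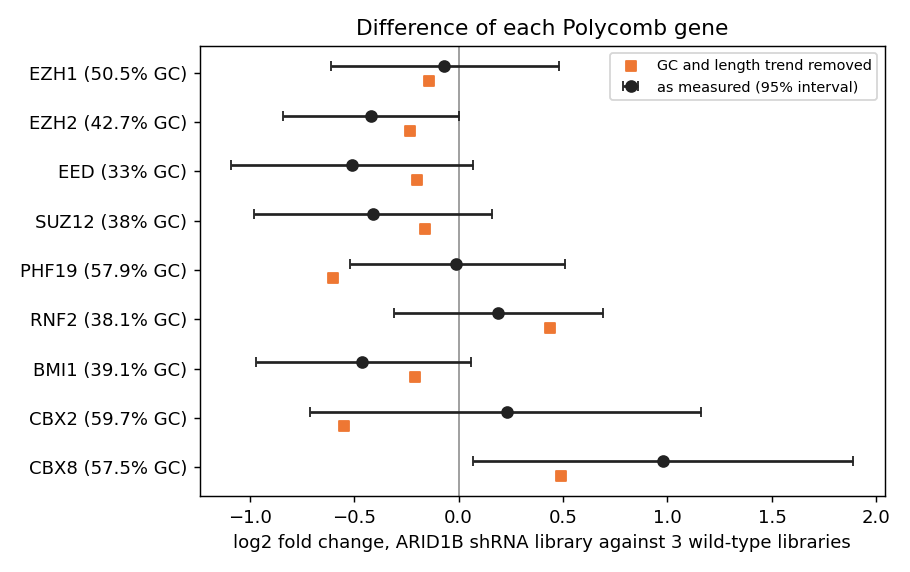
Log2 fold change of each Polycomb gene, the library labelled ARID1B shRNA against 3 wild-type libraries: black circles with 95% intervals as measured, orange squares after removal of the trend on GC content and length. GC content of the longest transcript stands beside each name. Only the interval of CBX8 lies wholly above 0, and that of EZH2 ends just below 0. CBX2 changes side with the trend removed.

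The chromodomain genes CBX8 and CBX2 were measured with the widest relative spread in wild type. CBX8 measured 7.53, 4.48 and 7.03 CPM in wild type, from 97, 58 and 108 reads, and 12.5 CPM from 110 reads in the shRNA-labelled library (95% Poisson interval 10.3 to 15.1). It lay above all wild-type libraries, 1.98-fold over their mean, and did not pass (log2 fold change 0.98, 95% interval 0.07 to 1.89, edgeR adjusted p = 0.173). CBX2 measured 34.5, 18.8 and 32.8 CPM in wild type, against 33.6 CPM in the shRNA-labelled library, inside a wide wild-type range (log2 fold change 0.23, 95% interval -0.71 to 1.16, edgeR adjusted p = 0.736). With the GC and length trend removed, CBX2 turned to -0.55 (edgeR adjusted p = 0.278).

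Of the 24 other PRC1 genes reported here, none passed by edgeR, beside 4.48% of all tested genes (median log2 fold change 0.00). An unadjusted edgeR p below 0.05 was found for 3, beside 25.4% of all genes. DESeq2 called 0 of the 24, beside 1775 of all 17024 genes. The smallest p-values belonged to AUTS2, SCML1, PHC2 and PCGF3, the last described above. AUTS2, a partner of the PCGF3 and PCGF5 forms, measured 55.2 ± 3.12 and 86.7 CPM (edgeR adjusted p = 0.0931). SCML1, a gene of the Sex comb on midleg family, measured 20.2 ± 4.46 and 10.9 CPM (0.172). PHC2, a Polyhomeotic subunit of canonical PRC1, measured 151 ± 45 and 271 CPM (0.174). PHC2 and AUTS2 had log2 fold changes of 0.85 and 0.65, and 0.11 each with the GC and length trend removed.

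Among themselves, the 9 genes were ordered by wild-type level per kilobase of exon. EZH2 stood first at 34.1 ± 2.07 CPM per kilobase, followed by PHF19 (25 ± 3.67) and SUZ12 (23.8 ± 4.03). The wild-type ranges of PHF19 and SUZ12 overlapped, so their order is not resolved. BMI1 (14.9 ± 1.68) and RNF2 (11.3 ± 1.09) came next without overlap between them. EED (5.31 ± 0.628) lay above EZH1 (4.11 ± 0.347) without overlap, while CBX2 (5.05 ± 1.52) was resolved from neither, as its range (3.3 to 6.07) covered both of theirs. CBX8 was last at 1.52 ± 0.392. The place of EED depends on the length used: counted on its longest transcript it stood at 13.5 ± 1.59 CPM per kilobase, level with RNF2 at 12.7 ± 1.23. The lead of EZH2 over PHF19 in wild type was also less clear on the longest transcript (42.3 ± 2.57 and 39.6 ± 5.83). In the shRNA-labelled library EZH2 (25.4) and PHF19 (24.9) were nearly level by exon length. On the longest transcript they stood at 31.6 and 39.5 in that library.

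The wild-type libraries also differed among themselves. Wild type 2 was the highest wild-type library for 5 of the 9 genes (EZH2, EED, SUZ12, RNF2 and BMI1) and the lowest for 3 (EZH1, CBX2 and CBX8). Those 5 genes have transcripts of 33.0% to 42.7% GC, and the 3 have 50.5% to 59.7%. GC content moved with the difference of the shRNA-labelled library as well: over all tested genes the median log2 fold change went from -0.30 in the lowest decile of GC content to 1.32 in the highest. EED and SUZ12 lie in the lowest decile, with -0.51 and -0.41 against its median of -0.30. RNF2 lies in the same decile with 0.19. CBX8, CBX2 and PHF19 lie in the ninth, with 0.98, 0.23 and -0.01 against a median of 0.51. With the trend on GC content and length removed, EZH2, EED, SUZ12 and BMI1 went to -0.23, -0.20, -0.16 and -0.21, CBX8 to 0.49, RNF2 to 0.44 and PHF19 to -0.60. None of the 9 passed (edgeR adjusted p 0.167 to 0.656), against 3.23% of all genes (2.01% higher).

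By likeness of profile over the 4 libraries, the closest gene to EED among 53 other Polycomb and opposing genes was BMI1, and the reverse held too. Their log2 CPM, centred on the wild-type mean, differed by a root mean square of 0.0284. EZH2 was also closest to BMI1 (0.0562), SUZ12 to LCORL (0.0573), PHF19 to SCMH1 (0.0143), EZH1 to PHC1 (0.0639) and RNF2 to PCGF1 (0.0837). CBX2 and CBX8 had no near match, with 0.148 to KDM2B and 0.18 to MBD6. With 4 libraries these are descriptions only.

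E2F and S-phase genes, a group in which EZH2 is often placed, gave 1 call, and it was a rise. Of 23 such genes, 22 were tested, 1 rose (CDT1) and none fell by edgeR, beside 3.65% and 0.834% of all tested genes. DESeq2 called 3, CDT1 higher and 2 genes lower, beside 1775 of all 17024 genes (1336 higher and 439 lower). An unadjusted p below 0.05 was found for 11 of the 22, beside 25.4% of all genes. Of the 22, 16 lay below every wild-type library, beside 37.9% of all genes, and E2F1, MCM2, MCM5, RRM2 and DNMT1 lay inside the wild-type range. The median log2 fold change was -0.45, against -0.05 over all genes. The replicative helicase genes MCM3, MCM6 and MCM4 lay at -0.84, -0.89 and -0.60 on the log2 scale (edgeR adjusted p = 0.0504, 0.0527 and 0.0905). CDT1, a licensing factor, measured 9.26 ± 1.98 and 35.4 CPM (edgeR adjusted p = 0.031), and 0.49 on the log2 scale with the trend removed (0.215). With the trend removed 2 genes fell, MCM3 (-0.90, edgeR adjusted p = 0.0378) and E2F2 (-1.29, 0.0445). The part of S-phase activity in the values of the PRC2 genes was not tested.

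Enzymes that take Polycomb marks off gave a single call. Of 12 genes (the H2A deubiquitinase BAP1 with its partners, USP16 and the H3K27 demethylases), 1 rose, KDM6B, and none fell, beside 3.65% of all tested genes that rose (median log2 fold change 0.36). DESeq2 called 5 of the 12, all higher, beside 1775 of all 17024 genes (1336 higher). Taking out each library's trend on GC and length turned the median of the 12 to -0.15, against -0.08 over all tested genes. By that measure 5 of the 12 were higher, 7 were lower and none passed, beside 3.23% of all genes. KDM6B, an H3K27 demethylase that responds to stimuli, measured 6.99, 8.58 and 12.4 CPM in wild type, against 44.3 CPM in the shRNA-labelled library. The rise was 4.74-fold (log2 fold change 2.24, edgeR adjusted p = 0.0314), above all 3 wild-type libraries. It did not pass with the GC and length trend removed (0.99, edgeR adjusted p = 0.0985) or without wild type 2 (2.19, 0.0715). KDM6A, the X-linked paralogue, measured 37.5 ± 6.53 and 49.5 CPM (edgeR adjusted p = 0.36). The BAP1 partners HCFC1, FOXK1 and MBD6 had log2 fold changes of 1.22, 0.85 and 0.92 (0.0706, 0.0674 and 0.0814) and turned to -0.12, -0.34 and -0.22 with the trend removed. Their fellow partner FOXK2 had 0.99 (edgeR adjusted p = 0.0913) and stayed above 0 with the trend removed, at 0.58 (0.129). BAP1 itself had 0.31 (edgeR adjusted p = 0.521).

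The HOX genes, the classic targets of Polycomb silencing, gave no call. Of 39 HOX genes 35 were tested, and none passed by edgeR, beside 4.48% of all tested genes. An unadjusted edgeR p below 0.05 was found for 5, beside 25.4% of all genes. DESeq2 called 3 of the 35, beside 1775 of all 17024 genes. The other 4 had at most 7 reads in any library. The median log2 fold change of the 35 was 0.15, and -0.07 after removal of the GC and length trend. The smallest p-values belonged to HOXA3 (14.1 ± 1.85 and 29.7 CPM), HOXA2 (27.6 ± 3.01 and 13.3 CPM), HOXB9 (14.9 ± 2.75 and 32.1 CPM) and HOXC12 (0.975 ± 0.241 and 2.74 CPM). Their log2 fold changes were 1.08, -1.05, 1.10 and 1.48 (edgeR adjusted p = 0.0674, 0.0778, 0.078 and 0.132), so neighbours in the HOXA cluster stood on opposite sides of wild type.

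**Figure D3:**
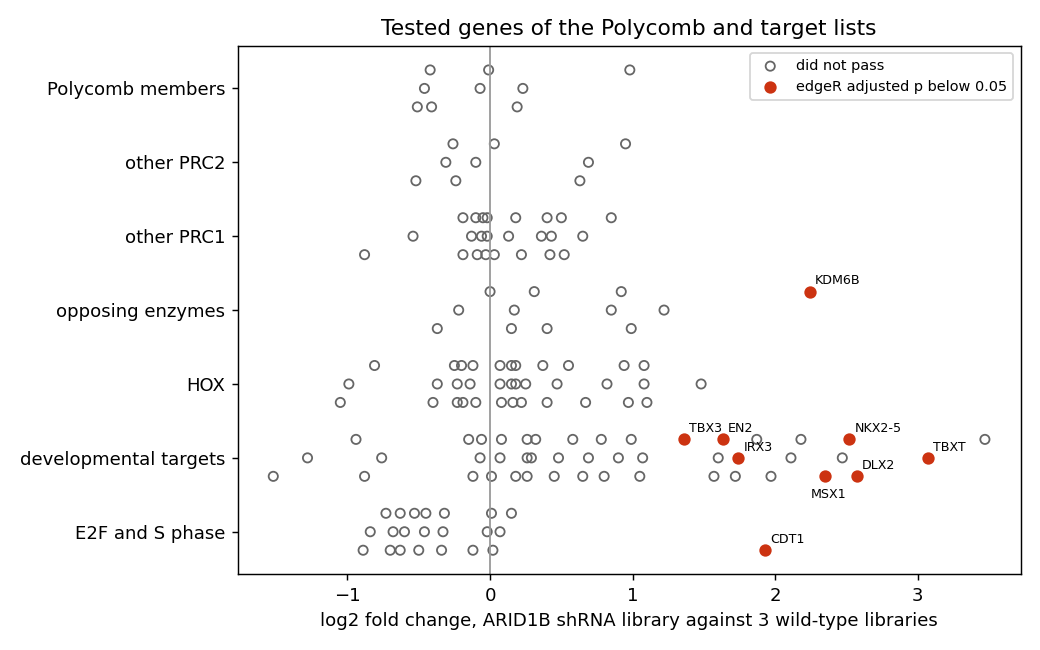
Log2 fold change of the tested genes reported here from 7 lists, the library labelled ARID1B shRNA against 3 wild-type libraries; filled red points passed at an edgeR adjusted p below 0.05 and open points did not. No Polycomb member and no HOX gene is filled, and 7 developmental target genes are.

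Among other developmental regulators that are known Polycomb targets in stem cells, 7 genes rose. Of 54 listed, 53 were matched and 45 tested. Of these 7 rose and none fell, beside 3.65% of all tested genes that rose and 0.834% that fell. An unadjusted edgeR p below 0.05 was found for 22 of the 45, beside 25.4% of all genes. The median log2 fold change was 0.69, against -0.05 over all tested genes. With the GC and length trend removed these medians were 0.38 and -0.08. The 8 untested genes had at most 8 reads in any library. OLIG2, HAND2 and TBXT, 3 of the 45, passed the filter only through the shRNA-labelled library, where they were high. All 3 are among the 22 and count in the medians of this list, so those values partly follow from the filter. Among the other 42, 6 rose. The homeobox genes DLX2, MSX1, EN2, NKX2-5 and IRX3, which pattern limbs, brain and heart, rose 5.93-fold, 5.09-fold, 3.10-fold, 5.81-fold and 3.35-fold. The T-box gene TBX3 rose from 69.2, 60.8 and 47.4 CPM in wild type to 152 CPM. TBXT, the mesoderm factor brachyury, had 3, 4 and 5 reads in wild type and 22 in the shRNA-labelled library, and is 1 of the 3 genes that entered only through that library. EN2 is also one of the 12 cerebellar markers above. The 7 genes had an edgeR adjusted p between 0.0183 (DLX2) and 0.0411 (TBXT). When the GC and length trend was removed, DLX2 (1.84, edgeR adjusted p = 0.0366) and EN2 (1.47, 0.0354) passed and the other 5 did not, beside 2.01% of all genes higher. The count of 7 was 9 without wild type 1, 2 without wild type 2 and 1 without wild type 3. Over all genes the higher calls went from 621 to 912, 140 and 449 under the same settings.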

How the data were processed

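Poly(A) RNA of 4 Daoy libraries was sequenced as single reads, per the labels' protocols. The deposited values are raw counts of reads per gene, made by the authors with bcl2fastq, HISAT2 and HTSeq on GRCh37 (hg19), with DESeq2 also named, per the submitters' processing notes. Versions, strand setting and annotation were not given in the sources used here, so reads of overlapping genes are uncertain. The 5 closing lines of each file that name no gene (19.6% to 22.2% of the reads listed) were left out. Symbols were matched for 52338 of 57820 identifiers (90.5%); EPOP, PCGF2, LHX1 and UHRF1 had no match and are not analysed here, and 1 gene of the other PRC1 list is not reported here. Lengths and GC content came from GENCODE 29 (GRCh38).

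Genes were filtered by filterByExpr (minimum count 10, total 15), scaled by TMM and tested with edgeR 4.0.16 in R 4.3.3 (robust glmQLFit, glmQLFTest), with Benjamini-Hochberg adjustment over 17024 genes and a threshold of 0.05. The fit has 2 residual degrees of freedom, and the lone library is assumed to vary as the wild-type ones do. Intervals of fold changes are 95% and unadjusted, and Poisson intervals cover counting error only; a single read equals 0.0651 to 0.114 CPM. The trend on GC content and length was removed by loess offsets (span 0.3, mean count of at least 20). Tried besides were scaling by RLE or upper quartile, limma-voom 3.58.1, DESeq2 1.42.0, a filter at a mean count of 50, no filter, and each wild-type library left out. DESeq2 gave at least TBXT no adjusted p, so its counts are set beside the 17024 genes entered, not the genes it adjusted. The procedure was also run on simulated counts, with the same spread set for every gene and library and no GC trend. That run cannot show how the procedure handles a GC trend or a lone library that varies otherwise.

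The members and lists were chosen with earlier results of these data known. Named were ARID1B, the 9 members, and of each list the genes that passed or, where fewer than 4 passed, the 4 with the smallest p (marker lists are given by their sums); paralogues of members were named as such, and E2F2, FOXK2, single markers, S-phase genes and a few other subunits after their values were seen. For each member the closest profile was the smallest root mean square difference in log2 CPM (prior count 2).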

Additional observations from a re-analysis of the deposited data

How the results depend on the processing

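None of the 9 Polycomb genes passed under any of the 10 alternatives, and 85 of their 90 values kept their direction. PHF19 turned to 0.02 with RLE scaling and DESeq2, 0.00 with limma-voom and up to 0.12 (range -0.07 to 0.12) without single wild-type libraries; CBX2 turned to -0.55 with the GC and length trend removed. ARID1B turned to -0.20 with the trend removed and ranged from 0.47 to 1.12 without single libraries. With the trend removed EZHIP, FOXK1, HCFC1 and MBD6 turned to -0.17, -0.34, -0.12 and -0.22. All genes called numbered 763, 1775 with DESeq2, 3226 with no filter, 550 with the trend removed and 157, 478 and 1189 without wild type 2, 3 and 1. The share of higher calls was 81.4%, and 62.2% with the trend removed, 70.5% with no filter and 93.9% without wild type 3. Upper-quartile scaling shifted the median of all genes by -0.12 on the log2 scale. With no filter 30709 genes were tested instead of 17024, among them 50 developmental targets instead of 45 and 38 HOX genes instead of 35. List counts with no filter therefore stand beside 3226 of 30709 genes. The call counts of other PRC2 genes went from 0 to 1 with RLE scaling or DESeq2 and 2 with no filter, and those of the other PRC1 genes reported here from 0 to 2 with no filter. Opposing enzymes went from 1 to 5 with DESeq2 or no filter, 0 with the trend removed and 0 to 2 without single libraries. HOX genes went from 0 to 3 with DESeq2 or no filter. Developmental targets went from 7 to 17 with no filter, 2 with the trend removed and 1 to 9 without single libraries. E2F and S-phase genes went from 1 to 3 with upper-quartile scaling or DESeq2, 2 with limma-voom or the trend removed, 7 with no filter and 0 to 1 without single libraries. Apart from CDT1, every E2F and S-phase gene called under these settings fell. Of the 17 developmental targets called with no filter, 1 fell. The cause of these moves was not tested. Lengths of the longest transcript, chosen after seeing the data, gave EZH2 a share of 84.2% in the library labelled ARID1B shRNA. No paired analysis was possible because the library labelled ARID1B shRNA carries no replicate number and stands alone. Depth limits CBX8 most, with 58 to 110 reads per library.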

Other observations

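EZHIP, whose product inhibits PRC2 at its catalytic subunit and which is normally expressed in germ cells, was well measured in all 4 libraries. It stood at 58.1, 44.8 and 63.9 CPM in wild type, against 85.8 CPM in the shRNA-labelled library (log2 fold change 0.63, edgeR adjusted p = 0.176). Per kilobase of exon that was 28.8 ± 5.09 CPM in wild type (SD, n = 3), against 34.1 ± 2.07 for EZH2, and 44.5 CPM in the shRNA-labelled library, against 25.4 for EZH2. By exon length, EZHIP was above EZH2 per kilobase in the shRNA-labelled library and in wild type 3 (33.1 against 31.9), and below it in wild type 1 and 2. The place in wild type 3 depends on the length used. Counted on its longest transcript, EZH2 stood at 42.3 ± 2.57 CPM per kilobase in wild type and 31.6 in the shRNA-labelled library. The length of EZHIP is 1.93 kilobases by either count. After removal of the GC and length trend its log2 fold change was -0.17 (edgeR adjusted p = 0.504).

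HOX genes of all 4 clusters were read in cells labelled medulloblastoma. Of 39 HOX genes 35 passed the filter on low counts, with wild-type means of 0.765 to 34.4 CPM, and HOXB1 alone was at 0 in every library.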
